A study of Mus musculus with 12 samples.

Results

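Ribosome biogenesis genes were followed here as 44 genes of mouse bone marrow, listed by name: proteins of RNA polymerase I transcription, of the small nucleolar ribonucleoproteins (snoRNPs) and of ribosomal subunit processing. Each of the 44 was found under its symbol among the 24533 gene rows of both deposited tables, and each had an adjusted p in both. The libraries came from C57BL/6 mice and fall into 4 groups of 3, 12 in all. Lineage-negative marrow cells (LinNeg) carried the genotype label WT or U2af1KO, and so did LSK cells, a fraction rich in stem cells that is sorted for Sca-1 and c-Kit after lineage depletion. The LSK cells also carry the label BMT, left unexplained there. U2af1 encodes the small subunit of the factor that recognises the 3′ splice site. The labels give no promoter or Cre line, no age, and no statement that replicates were separate animals, so p-values reflect only how these libraries varied, and that may be technical.

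A ribosome starts in the nucleolus, where RNA polymerase I transcribes a long precursor that is cut into the 18S, 5.8S and 28S RNAs. snoRNPs guide methylation and pseudouridylation of the precursor, and large assemblies fold and cleave it into the small (40S) and large (60S) subunits. The pathway is a known target of the transcription factor MYC, and its output is tied to the growth and cycling of blood progenitors. Inherited defects in several of these proteins cause marrow failure.

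Values here come from the authors' deposited tables, 1 per population, which hold comparisons of KO with WT and no values per library. A log2 fold change is of KO over WT, given with its standard error (SE), and a gene is called higher or lower when the adjusted p of the authors' DESeq2 test is under 0.05. Levels are means of normalized counts under each label, derived from the authors' mean and fold change with 3 libraries a side. They grow with transcript length, so they are not compared between genes, and each table has its own normalization, so no level is set against the other population.

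U2af1 itself stood at 0.65 (SE 0.19, adjusted p = 0.00293) in the authors' deposited table for LinNeg and at 0.61 (SE 0.06, adjusted p = 1.72e-25) in that for LSK, higher under the KO label in both. Which part of the gene was deleted is not known here, and a count over the whole gene can take in exons outside it. The values therefore do not check the labels, and each direction rests on the authors' name for the comparison. Why U2af1 was higher under the KO label was not tested. Sex-linked transcripts also moved with the label: in LSK the authors' deposited table gave Xist, which silences an X chromosome, 7.49 and the Y-linked Ddx3y -9.21. For LinNeg Xist was called higher as well, at 10.02 (SE 1.81, adjusted p = 2.73e-07) in the authors' deposited table, with a mean of 40 under WT and 41468 under KO. Ddx3y was at -0.79 (SE 1.64, adjusted p = 0.739) in the authors' deposited table for LinNeg and not called, with a mean of 2165 under WT and 1255 under KO. Genotype label and the sex of the cells cannot be told apart in LSK, Xist also moved with the label in LinNeg, and the part of sex in the results of either population was not tested. The sort markers of LSK were detected and lower under KO: Ly6a, which encodes Sca-1, went from 593 to 335, at -0.82 (SE 0.12, adjusted p = 1.5e-11), and Kit from 28724 to 14587, at -0.98 (SE 0.05, adjusted p = 2.95e-88), by the authors' deposited table.

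In both populations nearly every ribosome biogenesis gene was higher under the KO label. In LinNeg, 43 of 44 were called higher and 0 lower, with a median log2 fold change of 1.25 (2.37-fold), where 22.1% of all 17108 tested genes were called higher, 19.3% lower, and the median gene stood at 0.16. Recentring LinNeg on that median gene turned 3781 higher and 3307 lower calls among all genes into 3025 and 4116, and left 41 of the 44 higher. In LSK, 43 of 44 were called higher and 0 lower, with a median of 0.73 (1.66-fold), beside 32.4% of all 16482 tested genes called higher, 29.2% lower, and a median gene at 0.04. Among the 7799 genes whose mean reached 500 in both populations, as it did for all 44, 23.1% were called higher in LinNeg and 47.3% in LSK. A call in the higher direction in both tables was made for 42 of the 44, and for 14.1% of the genes tested in both. In each population 1 gene was not called, the polymerase subunit gene Polr1e in LinNeg and the small subunit processing factor Nop14 in LSK.

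**Figure D1:**
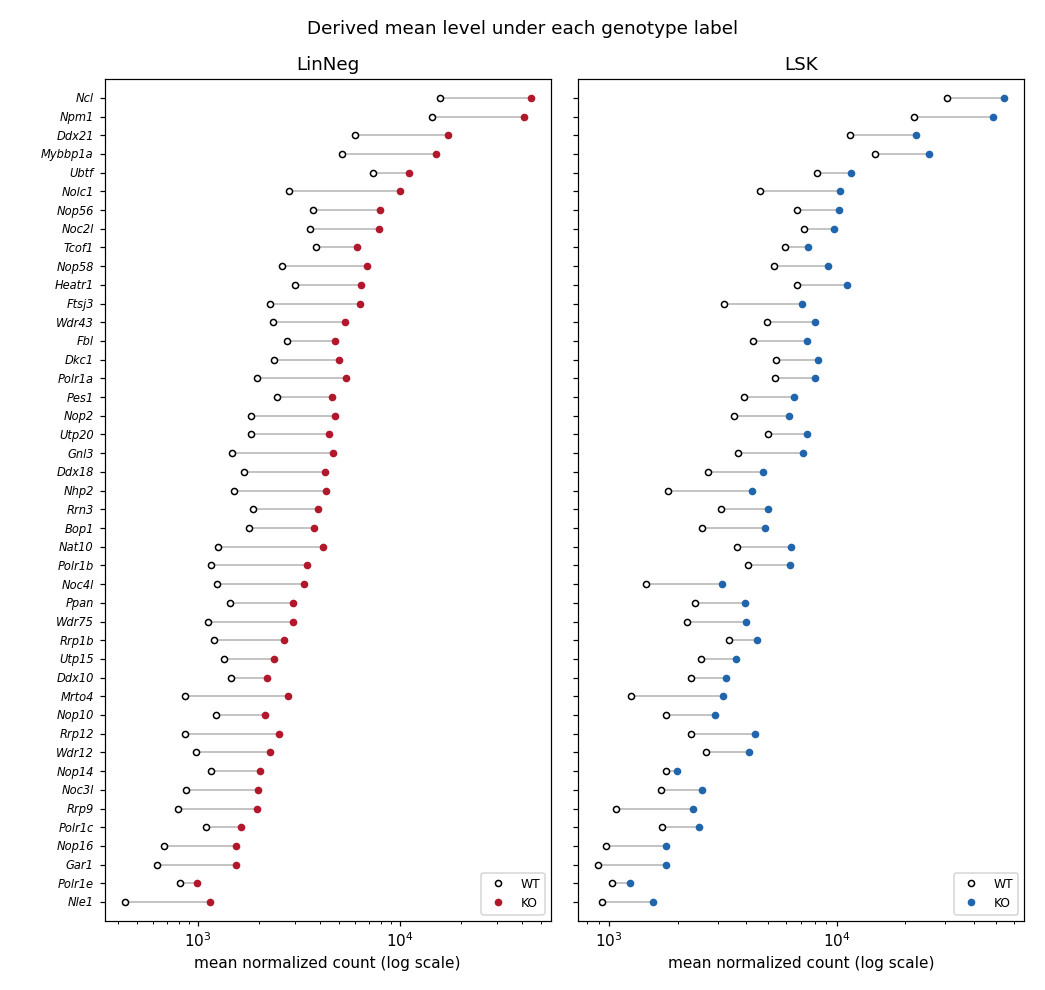
Mean normalized count under WT (open circles) and KO (filled circles) for each of the 44 genes in LinNeg (left) and LSK (right), on a log axis, sorted by the LinNeg mean. The KO mean lies to the right of the WT mean for all 44 genes in both panels, and the shortest lines belong to Polr1e in LinNeg and Nop14 in LSK.

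Markers of other cell types were counted as well, and several lists moved with the label. Over all tested genes 22.1% were called higher and 19.3% lower in LinNeg, and 32.4% and 29.2% in LSK. In LSK the monocyte and dendritic, B cell, and T and NK cell lists lay near or below those shares. Each summed mean covers every gene of its list, with or without an adjusted p. Of 10 erythroid markers, 9 rose in LinNeg and 10 in LSK, and their summed mean went from 17266 to 80785 in LinNeg and from 15209 to 99515 in LSK. Of 10 monocyte and dendritic markers, 10 fell in LinNeg (sum from 81510 to 7007), and in LSK 3 rose and 3 fell of 9 tested (sum from 7613 to 7348). Neutrophil markers fell in 7 of 9 tested in LinNeg (from 87528 to 4721) and rose in 9 of 10 in LSK (from 61191 to 172426). Mast cell markers rose in 3 of 7 in LinNeg (Mcpt4, Cma1 and Tpsb2) and fell in 4 (Cpa3, Hdc, Ms4a2 and Fcer1a). Their LinNeg sum, from 103247 to 21935, follows the 4 that fell, with Cpa3 from 36605 to 5181. Among the 3 that rose, Cma1 went from 14 to 2489. In LSK mast cell markers rose in 6 of 7 (from 2755 to 6184). Stem cell markers fell in 9 of 10 in LSK (from 95901 to 25770), and 2 rose and 4 fell of 10 in LinNeg (from 11679 to 6890). The LinNeg sum leans on Flt3, which went from 4842 to 53, while Ly6a went from 605 to 2784. The median log2 fold change of the stem cell list in LinNeg was 0.50. B cell markers fell in 3 of 8 in LinNeg (sum from 1567 to 1253) and 2 of 8 in LSK (from 1140 to 878). T and NK cell markers rose in 4 and fell in 1 of 6 tested in LinNeg, and in LSK 1 of 8 fell (from 2804 to 2739). Their LinNeg sum over all 8 genes went from 4118 to 5980. That sum takes in Cd3e (63 to 670) and Cd3d (21 to 304), which had no adjusted p in LinNeg. Proliferation markers rose in 7 and fell in 1 of 12 in LinNeg (median 0.49) and rose in 11 of 12 in LSK (median 0.37). No marker was at 0 in either table. In bulk RNA a change in the share of a cell type and a change in RNA per cell cannot be told apart, and the part of these shifts in the rise of the ribosome biogenesis genes was not tested.

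The rises were larger in LinNeg, where errors were also wider. In LinNeg the log2 fold changes ran from 0.28 (Polr1e) to 1.82 (Nolc1), and 34 of 44 genes were at least 2-fold higher. In LSK they ran from 0.15 (Nop14) to 1.34 (Mrto4), and 7 of 44 were at least 2-fold higher, namely Rrp9, Nhp2, Nolc1, Noc4l, Ftsj3, Mrto4 and Npm1, each of which was also past 2-fold in LinNeg. Standard errors were wider in LinNeg, from 0.17 to 0.29, than in LSK, from 0.05 to 0.11. Across the 44 genes the fold changes of the populations rose together (Pearson r = 0.69, Spearman rho = 0.69). This correlation is over genes and not over samples, and the genes share their libraries within each table.

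**Figure D2:**
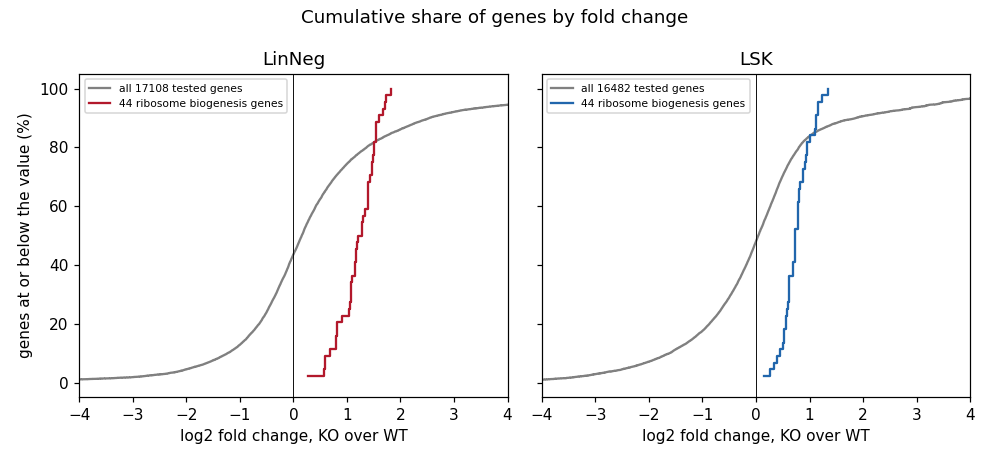
Share of genes (%) at or below each log2 fold change of KO over WT, for all tested genes (grey) and the 44 ribosome biogenesis genes (coloured), in LinNeg and LSK. The coloured steps begin above 0, at 0.28 in LinNeg and 0.15 in LSK, and end at 1.82 and 1.34, while the grey curves continue to larger rises.

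Of the 7 genes of the RNA polymerase I machinery, 6 rose in LinNeg (median 0.68) and 7 in LSK (median 0.55). The genes of the catalytic core led in LinNeg: Polr1b, the second largest subunit, went from 1152 under WT to 3477 under KO, a log2 fold change of 1.59 (SE 0.22, adjusted p = 2.92e-12) in the authors' deposited table, and Polr1a, the largest subunit, stood at 1.46 (SE 0.20, adjusted p = 4.34e-12). Rrn3, the initiation factor that brings the polymerase to its promoter, followed at 1.06 (SE 0.17) in the authors' deposited table. The remaining genes moved less. Ubtf, which coats active ribosomal DNA, was at 0.59 (SE 0.18, adjusted p = 0.00369), Tcof1 (treacle, mutated in Treacher Collins syndrome) at 0.68 (SE 0.21) and Polr1c, a subunit shared with RNA polymerase III, at 0.58 (SE 0.21, adjusted p = 0.0192) in the authors' deposited table. Polr1c lost its call when fold changes were recentred on the median gene (adjusted p = 0.0997). Polr1e, a subunit that takes part in initiation, had means of 817 and 989 in LinNeg and no call, at 0.28 (SE 0.22, adjusted p = 0.321) in the authors' deposited table.

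The polymerase genes lay closer together in LSK. Rrn3 was at the top with 0.69 (SE 0.05, adjusted p = 5.36e-38) in the authors' deposited table, from 3108 under WT to 5011 under KO. Polr1b at 0.62, Polr1a at 0.57, Polr1c at 0.55 and Ubtf at 0.50 came next in the authors' deposited table. Tcof1 at 0.33 and Polr1e at 0.26 (SE 0.08, adjusted p = 0.00172) were the smallest rises of the group. No gene of this group reached 2-fold in LSK, and 3 did in LinNeg.

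**Figure D3:**
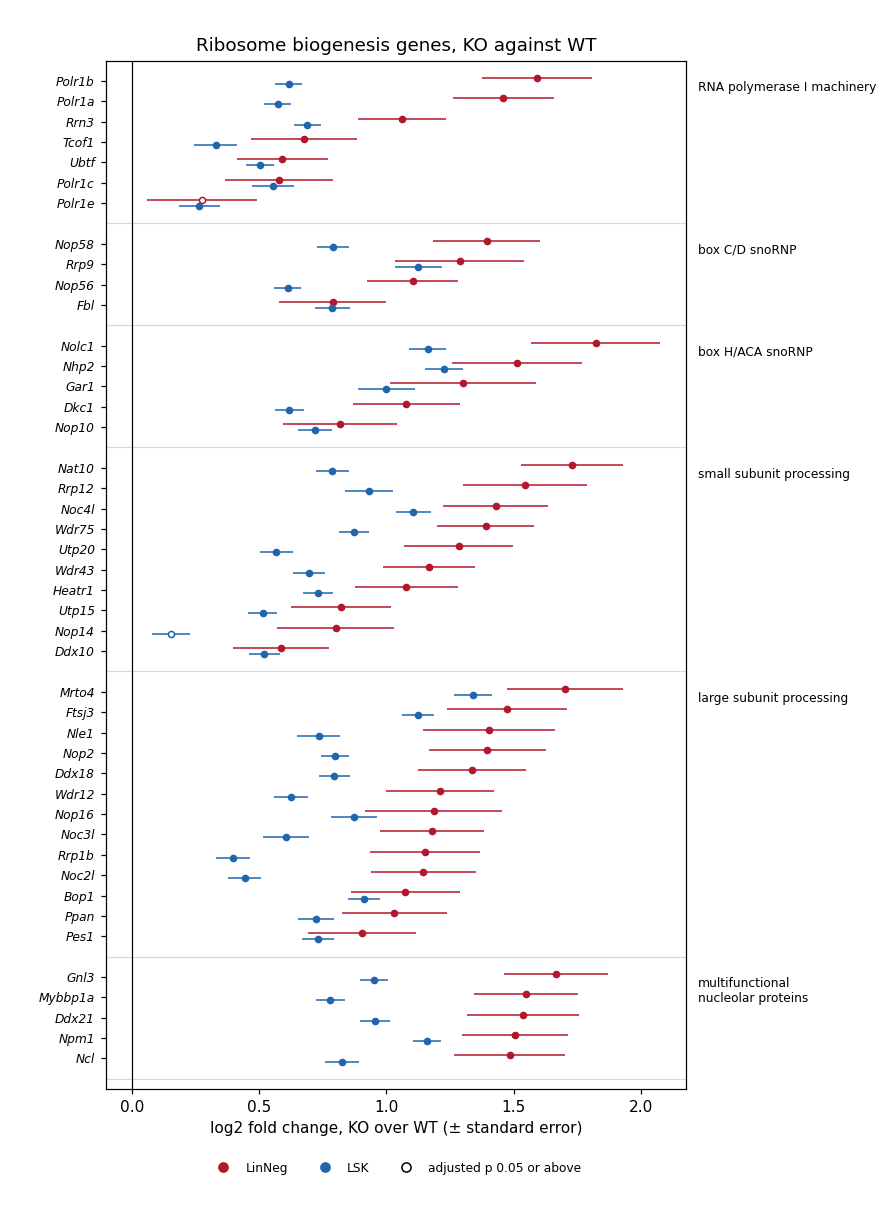
Log2 fold change of KO over WT for the 44 genes, grouped by role, in LinNeg (red) and LSK (blue), with the authors' standard errors as bars. Open circles mark the 2 values with an adjusted p of 0.05 or above, Polr1e in LinNeg and Nop14 in LSK, and every point lies to the right of 0.

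All 4 genes of the box C/D snoRNPs, which methylate ribosomal RNA and, as the U3 particle, help cut it, rose in both populations (medians 1.20 in LinNeg and 0.79 in LSK). Nop58, a scaffold protein of the particle, went from 2598 to 6830 in LinNeg, at 1.39 (SE 0.21, adjusted p = 4.56e-10) in the authors' deposited table, and from 5283 to 9142 in LSK, at 0.79 (SE 0.06). Its partner Nop56 was at 1.10 (SE 0.18) in LinNeg and, as the smallest rise of the group, at 0.61 (SE 0.05) in LSK in the authors' deposited tables. Fbl, fibrillarin, the methyltransferase of the particle, rose by nearly equal amounts, at 0.79 (SE 0.21, adjusted p = 0.000774) in LinNeg and 0.79 (SE 0.07, adjusted p = 1.38e-28) in LSK in the authors' deposited tables. Rrp9, a protein particular to the U3 snoRNP, rose most in LSK, from 1076 to 2348, at 1.13 (SE 0.09, adjusted p = 6.61e-32) by the authors' deposited table. Nop56 and Fbl have near copies among the annotated transcripts, so reads may be divided between them and those copies.

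The 5 genes of the box H/ACA snoRNPs, which turn uridine into pseudouridine and share their core with telomerase, all rose in both populations (medians 1.30 in LinNeg and 0.999 in LSK). Nolc1, a chaperone that binds snoRNPs, showed the highest fold change of the 44 in LinNeg, 1.82 (SE 0.25, adjusted p = 1.04e-11) in the authors' deposited table, a rise from 2810 to 9934 or 3.53-fold. Nhp2 led the group in LSK, from 1809 to 4230, at 1.23 (SE 0.07, adjusted p = 6.68e-60) in the authors' deposited table. The enzyme itself, Dkc1 (dyskerin, on the X chromosome), rose less than Nhp2 in fold, at 1.08 (SE 0.21) in LinNeg and 0.62 (SE 0.06, adjusted p = 5.49e-26) in LSK in the authors' deposited tables. Nop10, the smallest core protein, was at 0.82 (SE 0.22, adjusted p = 0.00101) in LinNeg and 0.72 in LSK, and Gar1 at 1.30 and 0.999, in the authors' deposited tables.

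Of 10 small subunit processing genes, 10 rose in LinNeg (median 1.23) and 9 in LSK (median 0.71). Nat10, which acetylates cytidines of 18S RNA, rose most in LinNeg, from 1252 to 4148, at 1.73 (SE 0.20, adjusted p = 1.98e-16) in the authors' deposited table. The top of the group in LSK was Noc4l, which works with Nop14 in the early 40S particle, from 1454 to 3126, at 1.10 (SE 0.07, adjusted p = 9.42e-57) in the authors' deposited table. Nop14 stood apart from that partner in LSK: its means were 1781 and 1981, at 0.15 (SE 0.07, adjusted p = 0.0587) in the authors' deposited table, while in LinNeg it was called at 0.80 (SE 0.23, adjusted p = 0.00189). Its adjusted p in LSK fell to 0.0471 when genes with a mean under 100 were left out.

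Wdr75, Wdr43, Heatr1 and Utp15 belong to the complex that joins the precursor while it is being transcribed. In LinNeg the authors' deposited table gave Wdr75 1.39, Wdr43 1.17 (SE 0.18), Heatr1 1.08 and Utp15 0.82, and in LSK 0.87, 0.70 (SE 0.06), 0.73 and 0.51 in the same order. Utp20, a very large scaffold protein, was at 1.28 (SE 0.21) in LinNeg and 0.57 (SE 0.06) in LSK, and Rrp12, needed for export of the 40S precursor, at 1.54 (SE 0.24) and 0.93 (SE 0.09), in the authors' deposited tables. The helicase Ddx10 was the smallest rise of the group in LinNeg, from 1462 to 2195, at 0.59 (SE 0.19, adjusted p = 0.00665) in the authors' deposited table, and recentring on the median gene ended its call (adjusted p = 0.0549).

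All 13 large subunit processing genes rose in both populations (medians 1.19 in LinNeg and 0.73 in LSK). Mrto4, a relative of the stalk protein P0 that holds its place on the 60S precursor, led in both: it went from 857 to 2791 in LinNeg, at 1.70 (SE 0.23, adjusted p = 1.56e-12), and from 1248 to 3163 in LSK, at 1.34 (SE 0.07, adjusted p = 3.27e-71), in the authors' deposited tables. The methyltransferase Ftsj3 was next in LSK at 1.12 (SE 0.06) in the authors' deposited table. Pes1, Bop1 and Wdr12 form 1 complex required for 28S RNA maturation. Pes1 had the smallest rise of the group in LinNeg, 0.90 (SE 0.21, adjusted p = 0.000112) in the authors' deposited table, with Bop1 at 1.07 and Wdr12 at 1.21 (SE 0.21). In LSK the authors' deposited table gave Bop1 0.91, Pes1 0.73 and Wdr12 0.62 (SE 0.07).

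The lowest rises among large subunit genes in LSK were Rrp1b, from 3379 to 4448 at 0.40 (SE 0.07, adjusted p = 1.09e-08), and Noc2l at 0.44 (SE 0.07, adjusted p = 7.25e-11), in the authors' deposited table. Both were past 2-fold in LinNeg, where they stood at 1.15 (SE 0.22) and 1.15 (SE 0.21) in the authors' deposited table. Noc3l, which pairs with Noc2l, was at 1.18 (SE 0.20) and 0.61 (SE 0.09), and the RNA methyltransferase Nop2, a proliferation antigen, at 1.40 (SE 0.23) and 0.80 (SE 0.05), in LinNeg and LSK of the authors' deposited tables. The other members of the group, Nop16, Ddx18, Nle1 and Ppan, lay between 1.03 (Ppan) and 1.40 (Nle1) in LinNeg and between 0.72 (Ppan) and 0.87 (Nop16) in LSK.

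The 5 nucleolar proteins with several roles had the smallest range of the 6 groups, between 1.48 and 1.67 in LinNeg and between 0.78 and 1.16 in LSK. Npm1, nucleophosmin, a chaperone often mutated in myeloid leukaemia, went from 14396 to 40863 in LinNeg and from 21747 to 48586 in LSK, at 1.51 (SE 0.21, adjusted p = 7.86e-12) and 1.16 (SE 0.06, adjusted p = 6.9e-92) in the authors' deposited tables. Ncl, nucleolin, was at 1.48 (SE 0.22) and 0.83 (SE 0.07), from 15812 to 44233 and from 30580 to 54188, in the same tables. Gnl3 (nucleostemin, a GTPase of stem cell nucleoli) led this group in LinNeg at 1.67 (SE 0.21, adjusted p = 9.74e-15) and stood at 0.95 (SE 0.05) in LSK in the authors' deposited tables. The helicase Ddx21 at 1.54 (SE 0.22) and 0.96 (SE 0.06), and Mybbp1a, a partner of MYB, at 1.55 (SE 0.20) and 0.78 (SE 0.06), completed the group in the authors' deposited tables. Near copies of Npm1, Ncl, Ddx21 and Mybbp1a are among the annotated transcripts. So are near copies of Nhp2, Gar1, Dkc1, Mrto4, Ddx18, Pes1 and Wdr12 from the groups above. A near copy here is a match of at least 300 bases and need not be a copy of the whole gene. For Wdr12 the matches include transcripts of Pms1 and Vmn1r88. Whether any copy is transcribed in these cells was not tested. In all, 17 of the 44 genes have such a copy or share exonic bases with a gene on the opposite strand, and of the other 27, 26 rose in each population.

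The difference between the populations was tested gene by gene, as the log2 fold change in LSK minus that in LinNeg divided by the combined SE, the square root of SE squared summed over both tables (a normal test on 2 sides, adjusted by Benjamini-Hochberg over 17397 genes). The effect was smaller in LSK for 19 of the 44 genes and larger for 0. Counted by sign and not by size, 12.8% of all genes tested had a lower log2 fold change in LSK by this test and 15.5% a higher one. The lower share was 10.9% among the 7799 more abundant genes. The estimate was below 0 for all 44, with a median of -0.47, beside -0.02 over all genes. Recentring each table on its median gene, which shifts the tables by 0.11 against each other, left 8 of the 19 calls: Polr1a, Polr1b, Utp20, Nat10, Noc2l, Rrp1b, Gnl3 and Mybbp1a. The same 8 passed an adjusted p of 0.01.

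Polr1b showed the largest difference, -0.98 (95% interval -1.41 to -0.54, adjusted p = 0.0001), with Nat10 at -0.94 (95% interval -1.35 to -0.53, adjusted p = 7.34e-05) and Polr1a at -0.89 (95% interval -1.29 to -0.48, adjusted p = 0.000149). Mybbp1a at -0.77 (95% interval -1.18 to -0.35, adjusted p = 0.00172), Rrp1b at -0.75 (95% interval -1.20 to -0.31, adjusted p = 0.0045) and Utp20 at -0.72 (95% interval -1.15 to -0.28, adjusted p = 0.00697) followed, then Gnl3 at -0.72 and Noc2l at -0.70. At the other end Fbl, Polr1e and Polr1c differed by -0.000697, -0.01 and -0.02. Their intervals, -0.44 to 0.43 for Fbl, -0.46 to 0.44 for Polr1e and -0.47 to 0.43 for Polr1c, lie on both sides of 0. The U3 protein Rrp9 (-0.16, interval -0.69 to 0.37) and the H/ACA core proteins Nhp2 (-0.29, -0.81 to 0.23), Gar1 (-0.30, -0.90 to 0.30) and Nop10 (-0.10, -0.55 to 0.36) were not called either. By role, the calls were 2 of 7 in the polymerase group, 2 of 4 in box C/D, 1 of 5 in box H/ACA, 5 of 10 in small subunit processing, 5 of 13 in large subunit processing and 4 of 5 among the nucleolar proteins with several roles.

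**Figure D4:**
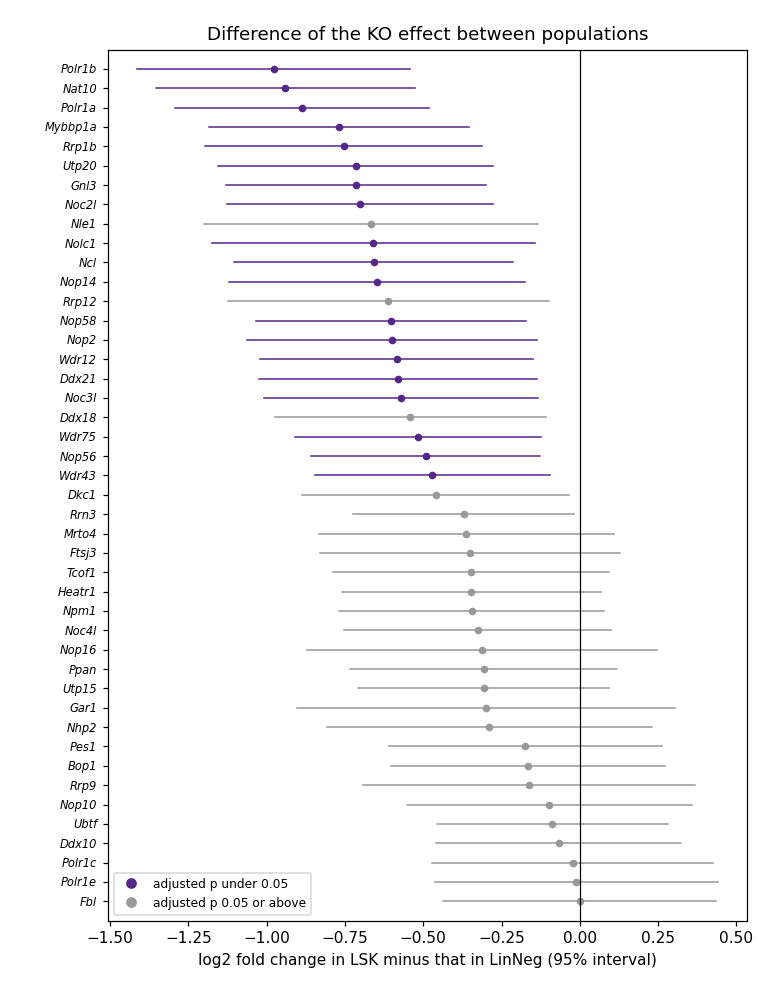
Log2 fold change in LSK minus that in LinNeg for each of the 44 genes, with 95% intervals, sorted by size. The 19 purple genes have an adjusted p under 0.05, all with a smaller effect in LSK, from -0.98 for Polr1b to -0.47 for Wdr43, and the grey intervals at the bottom, such as that of Fbl, extend on both sides of 0.

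Another 117 genes of the pathway, all found (5 under older symbols), mostly rose as well. In LinNeg 85 of 117 were called higher and 1 lower (median 0.71), and in LSK 108 higher and 0 lower (median 0.64), beside the shares of all genes given above. Requiring a change of at least 1.5-fold left 65 of the 108 in LSK. Of 14 other polymerase I genes, 8 rose and 1 fell in LinNeg and 10 rose in LSK. The gene that fell was Znrd1 (Polr1h), a small polymerase I subunit, at -0.67 (SE 0.21, adjusted p = 0.00371) in LinNeg and 0.04 (SE 0.12, adjusted p = 0.812) in LSK in the authors' deposited tables. Polr2l, a subunit common to the nuclear RNA polymerases, rose most of them, at 1.26 (SE 0.23) in LinNeg and 1.14 (SE 0.11) in LSK in the authors' deposited tables.

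Of 42 other small subunit genes, 32 rose in LinNeg and 41 in LSK, led by Cirh1a (Utp4), of the same early complex as Heatr1, at 1.79 (SE 0.20) in LinNeg and by Pno1, a late 40S factor, at 1.29 (SE 0.08) in LSK in the authors' deposited tables. Of 40 other large subunit genes, 31 rose in LinNeg and 37 in LSK, with Wdr74 at the top of both (2.82-fold and 2.08-fold from the authors' deposited tables). Mdn1, the giant ATPase that strips factors from the 60S precursor, was named after its values were seen: it stood at 1.20 (SE 0.19, adjusted p = 1.19e-09) in LinNeg and 0.05 (SE 0.07, adjusted p = 0.565) in LSK in the authors' deposited tables, a difference of -1.15 (95% interval -1.54 to -0.76, adjusted p = 1.22e-07). Of 21 snoRNP assembly and exosome genes, 14 rose in LinNeg and 20 in LSK. The H/ACA assembly factor Shq1 led in LinNeg at 1.18 (SE 0.25) and Znhit3, a C/D assembly factor, in LSK at 0.94 (SE 0.14) in the authors' deposited tables. Over the 117 genes the log2 fold change was called lower in LSK than in LinNeg for 9 and higher for 2, with a median difference of -0.11. The 2 were Polr1d, at 0.34 in LinNeg and 0.91 in LSK, and Znrd1, which fell in LinNeg only.

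**Figure D5:**
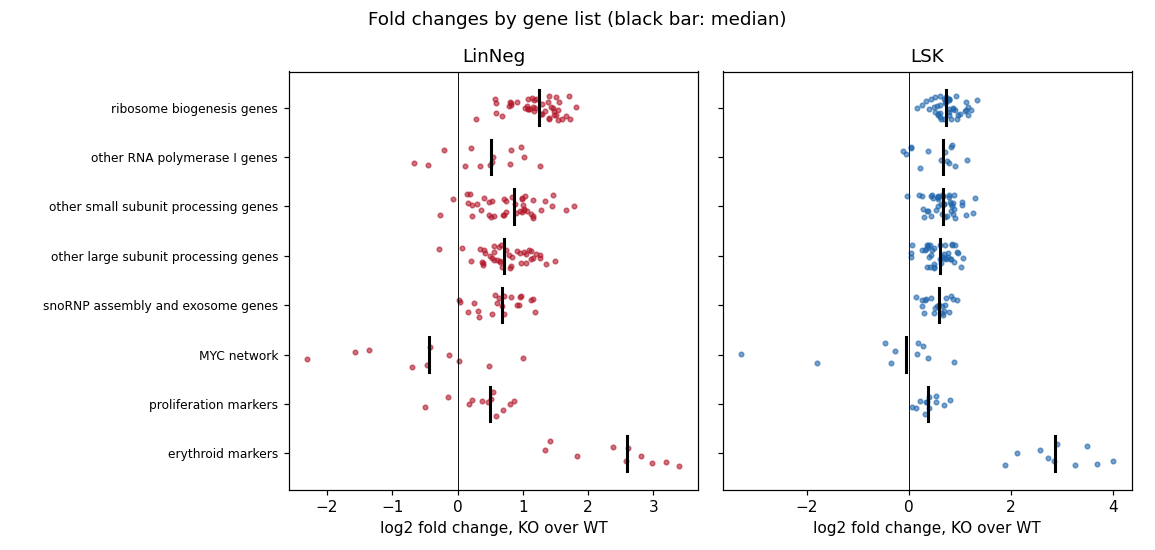
Log2 fold change of KO over WT per gene, by list, in LinNeg (left) and LSK (right), with a black bar at each median and points spread vertically for visibility only. The ribosome biogenesis genes lie wholly to the right of 0, with medians of 1.25 and 0.73, the 4 lists of other pathway genes have medians between 0.51 and 0.86, and the erythroid markers lie farther right, at 2.60 and 2.87.

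The ribosomal RNA precursor was not called in either population. Rn45s, the product of RNA polymerase I, was at 0.39 (SE 0.23, adjusted p = 0.164) in LinNeg and -0.09 (SE 0.06, adjusted p = 0.23) in LSK in the authors' deposited tables. Ribosomal RNA was depleted before library preparation, so these reads are what the depletion left. The MYC family was mixed. Myc stood at 0.48 (SE 0.21, adjusted p = 0.0559) in LinNeg, without a call, and at 0.28 (SE 0.08, adjusted p = 0.000602) in LSK in the authors' deposited tables; leaving out genes with a mean under 100 gave it an adjusted p of 0.0449 in LinNeg. Mycn, its relative, was called higher in LinNeg at 1.001 (SE 0.39, adjusted p = 0.0289) and fell in LSK from 2396 to 246, at -3.28 (SE 0.30, adjusted p = 3.62e-27) in the authors' deposited tables. Recentring ended the LinNeg call of Mycn (adjusted p = 0.0708). Max, the dimer partner of MYC, was at -0.13 (SE 0.16, adjusted p = 0.548) in LinNeg and 0.38 (SE 0.06, adjusted p = 1.83e-10) in LSK in the authors' deposited tables. Of the 10 genes of the network 1 rose (Mycn) and 5 fell (Mycl, Mxd1, Mxd3, Mxi1 and Mnt) in LinNeg. In LSK 4 rose (Myc, Max, Mxi1 and Mlx) and 4 fell (Mycn, Mxd3, Mxd4 and Mnt). Over all tested genes 22.1% rose and 19.3% fell in LinNeg, and 32.4% rose and 29.2% fell in LSK. The list of 10 pools genes of opposed roles, so its counts give no direction for MYC activity, which was not tested.

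Some ribosome biogenesis genes carry snoRNA genes in their introns, so that 1 transcript yields both a protein and a guide RNA. GENCODE M21 places snoRNA genes within 7 of the 44 (Nop56, Nop58, Dkc1, Wdr43, Ppan, Ncl and Gnl3), 21 in all. Of these, 11 have a row of their name in the tables, and the other 10, among them those in Dkc1 and Ppan, were not analysed here. Counts of the short RNAs were low. In the authors' deposited tables Snord53 in Wdr43 had a mean of 78.5 in LinNeg and 115 in LSK, with log2 fold changes of 0.88 (SE 0.46) and 0.12 (SE 0.23), neither called. Snord110 in Nop56 was the only one called of the 10 with an adjusted p in LinNeg, in the authors' deposited table for LinNeg at 4.32 (SE 1.61, adjusted p = 0.0204) with a mean of 11.9, and in LSK, where none of 11 was called, it stood at 0.59 (SE 0.49).

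Promoters were searched because the genes moved together. RefSeq (GRCm38.p6) gave 48 promoters for 39 of the 44 genes, each 250 bases before to 50 after a start site, read on both strands. Counted by promoter, the E-box CACGTG was in 14.6% of the 48 and in 7.15% of all 32851 promoters, and the shares that follow are of genes. The E-box CACGTG, the preferred site of MYC with MAX, was in promoters of 7 of the 39 genes (17.9%): Nop2, Utp20, Pes1, Mybbp1a, Nle1, Rrn3 and Wdr43. It was in 8.93% of the 11220 genes tested in both tables that have a promoter, and in 8.09% of all 27025 genes with one. The ETS motif CCGGAAGT was in promoters of 8 of 39 (20.5%), beside 5.54% of the tested genes and 4.31% of all genes. The GC box CCCGCCC was in 19 of 39 (48.7%, beside 35.1% and 27.9%) and TATAAA in 3 of 39 (7.69%, beside 14.9% and 15.7%). These motifs were chosen with the results known, no motif contains another, and a match is a description of the letters and not a bound site.

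The stretches before the start sites of Nop2, Rrn3 and Gar1 are shown because they hold a motif ahead of the start and outside annotated exons. Capitals mark an E-box in Nop2 (at base -60 from the start) and Rrn3 (at -215 and -48), and the ETS motif, on the reverse strand, in Gar1 (at -44). They run 5′ to 3′ along the gene's own strand in GRCm38: Nop2 at chr6:125131783-125131882, plus strand, Rrn3 at chr16:13780449-13780698, plus strand, and Gar1 at chr3:129831397-129831496, minus strand.
Nop2: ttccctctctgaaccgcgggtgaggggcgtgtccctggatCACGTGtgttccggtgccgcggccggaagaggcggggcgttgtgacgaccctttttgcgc
Rrn3: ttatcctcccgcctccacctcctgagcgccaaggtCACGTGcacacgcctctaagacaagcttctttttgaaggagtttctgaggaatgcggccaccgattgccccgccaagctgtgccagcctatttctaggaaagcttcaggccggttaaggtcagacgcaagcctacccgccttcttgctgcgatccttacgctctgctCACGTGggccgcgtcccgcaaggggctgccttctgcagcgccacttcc
Gar1: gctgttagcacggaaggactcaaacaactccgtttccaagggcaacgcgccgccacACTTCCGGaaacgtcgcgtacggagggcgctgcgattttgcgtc
With an E-box the log2 fold changes in LinNeg ran from 0.90 (Pes1) to 1.55 (Mybbp1a), within the range of the genes without one. In mm10 the gene Nop2 (ENSMUSG00000038279.10) lies on chromosome 6 from 125131909 to 125144753, plus strand, Gar1 (ENSMUSG00000028010.16) on chromosome 3 from 129824912 to 129831396, minus strand, and Rrn3 (ENSMUSG00000022682.8) on chromosome 16 from 13780708 to 13814839, plus strand.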

How the data were processed

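RNA was measured in 12 libraries, 3 in each of 4 groups. Per the labels' protocols, marrow was lineage-depleted and flow-sorted, ribosomal RNA was removed and libraries were made from total RNA. HISAT2, SAMtools, StringTie and DESeq2 are named with build mm10 per the submitters' processing notes. Which program counted reads, with which strand setting and annotation, is not given in the sources used here. Per the file headers each of 2 tables holds the authors' mean of normalized counts (a signal on a linear scale), log2 fold change and its standard error on the log2 scale, Wald statistic (a score), p-value and adjusted p-value. Values per library were not used here, so depth per library is unknown.

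Since the deposited fold changes are rounded, the Wald statistic multiplied by its error gave the fold change used, within 0.005 of the deposited one. Left out were 5 rows of no gene and 4 rows whose symbol is repeated. The row of reads with no feature held 38.0% of all means in LinNeg and 26.4% in LSK. A call is an adjusted p under 0.05 of DESeq2, run by the authors across all genes. The difference test was tried on simulated data over 17397 genes, of which 200 were changed by 1 on the log2 scale. Those 200 were drawn only from the more abundant genes defined above. The test recovered 88.5% of those 200, which does not extend to genes with lower counts, and 4.84% of its calls were false. The noise was drawn from the same standard errors by which the test divides. The share of false calls was therefore set by the design and cannot check the test on these libraries. Both rates hold for the simulated data only. All 44 ribosome biogenesis genes had estimated differences smaller in size than 1, the largest -0.98 (Polr1b) and the median -0.47. The share recovered at such smaller sizes was not tested. Near copies were found with blastn 2.17.0 (at least 90% identity over 300 bases of another gene's transcript), and overlaps as at least 50 shared exonic bases, in GENCODE M21. Alternatives changed the threshold, centring, filters and size of change.

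The members, lists and motifs were chosen with earlier results of these data known. Named were, within each role, the largest and smallest changes in each table, every member without a call and every member with a different effect between populations; from each list of other genes the largest rise and every fall; and Myc, Mycn, Max, Rn45s and U2af1. Computation used scipy 1.17.1 and numpy 2.4.6 with pandas 2.3.3 in Python 3.11.15, and figures matplotlib 3.10.9.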

Additional observations from a re-analysis of the deposited data

Results flagged for a closer look

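The effect of the KO label differed between LSK and LinNeg, by the test of the difference itself, for 19 of the 44 ribosome biogenesis genes, each with the smaller rise in LSK. The differences of log2 fold change (LSK minus LinNeg) that also passed with recentred tables and at an adjusted p of 0.01 were those of Polr1b (-0.98), Nat10 (-0.94), Polr1a (-0.89), Mybbp1a (-0.77), Rrp1b (-0.75), Utp20 (-0.72), Gnl3 (-0.72) and Noc2l (-0.70). Those of Nolc1 (-0.66), Ncl (-0.66), Nop14 (-0.65), Nop58 (-0.60), Nop2 (-0.60), Wdr12 (-0.59), Ddx21 (-0.58), Noc3l (-0.57), Wdr75 (-0.52), Nop56 (-0.49) and Wdr43 (-0.47) passed as well, and each of these lost its call when the tables were recentred on their median genes. No single library could be examined for standing apart, since no values per library were used.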

How the results depend on the processing

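The 43 calls in LinNeg became between 41 and 43 under the 5 alternatives of threshold, size, centring and filters, and the 43 in LSK between 33, with a change of at least 1.5-fold required, and 44, with a mean of at least 100 required. Without members that overlap another gene or have a near copy, an alternative chosen after seeing the data, 26 of 27 were called in LinNeg, 26 of 27 in LSK, and 12 differed between the populations. The 19 differing genes became 8 at an adjusted p of 0.01, 8 with both tables recentred on the median gene, 14 with a change of at least 1.5-fold and 21 under either other filter. The 108 other pathway genes called in LSK became 65 with a change of at least 1.5-fold, and the 85 in LinNeg stayed between 69 and 86. Among all genes, recentring moved the split in LinNeg from 3781 higher and 3307 lower to 3025 and 4116. No called value of a named member changed sign. Leaving out replicates was not run, because the tables hold no values per library. No paired analysis was possible because the columns carry no libraries or replicate numbers. Depth per library is unknown, so low-count features such as snoRNAs can only be read through their standard errors.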

Other observations

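Exon number, which ranges from 2 (Nop10) to 62 (Utp20) over the 44 genes in GENCODE M21, was set beside the fold changes. It was chosen because the U2af1 protein takes part in recognising 3′ splice sites, and it does not measure how far a gene depends on U2af1. Across the 44 genes, by exons of the longest principal transcript, Spearman's rho was 0.06 in LinNeg and -0.29 in LSK. Across all tested genes with a value it was -0.01 in both, over 16676 and 16057 genes. There the highest exon number of any transcript of the gene was used, so the rhos cannot be compared directly. These are descriptions over genes, which share their libraries and are not independent replicates.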
